A study of Mus musculus with 12 samples.

Results

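The interferon regulatory factor genes were examined as a family in mouse macrophages. The 8 members, chosen by name, were Irf1, Irf2, Irf3, Irf4, Irf5, Irf7, Irf8 and Irf9, out of 41388 genes in the deposited tables. All 8 passed the filter on low counts. The libraries came from thioglycolate-elicited peritoneal macrophages, which are cells recruited to the mouse abdominal cavity by an irritant, collected days later, plated, and stimulated the next day. The 4 groups of 3 libraries were LysM-Cre control cells given vehicle (bovine serum albumin in buffered saline), LysM-Cre control cells given 250 uM palmitate with 100 ng/ml LPS, and LysM-PPARg knockout-labelled cells given the same vehicle or the same stimulus, all for 8 h. Cre was carried by controls and knockouts alike, and LysM drives it in myeloid cells, so deletion is not limited to macrophages and need not reach every cell. The treatment tag of the labels names palmitate alone, whereas the design text gives palmitate with LPS, a saturated fatty acid with a bacterial cell wall component.

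Interferon regulatory factors are transcription factors that share a DNA-binding domain and recognise GAAA-containing elements in the promoters of interferon and interferon-stimulated genes. IRF3 and IRF7 are activated by phosphorylation downstream of Toll-like and RNA-sensing receptors and induce type I interferon. IRF9 is the DNA-binding subunit of a complex with STAT2 that responds to the interferon receptor, IRF1 and IRF2 bind shared elements with mostly opposite effects, IRF5 acts downstream of MyD88, and IRF4 and IRF8 bind composite sites with PU.1 or AP-1 proteins. Several of these proteins are regulated after translation, which mRNA levels do not show.

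The libraries held 17960457 to 22696385 counts, and 12914 genes were tested. Nothing in the labels says that replicates came from separate animals or cultures, so p-values measure only the spread between these libraries, which may be technical. Levels are given as CPM, which are counts scaled to a common library size. The means of the 8 macrophage markers in vehicle controls ran from 21.2 CPM (Lyz2) to 4954 (Cd68). The summed level of T and NK cell markers did not exceed 0.378 in any library. Vehicle knockout-labelled replicate 1 stood apart on the second principal component, and 1.04% of its counts lay in 88 ribosomal protein genes against 0.643% to 0.784% in the other libraries. That share was also lower in stimulated libraries labelled knockout (0.647%, 0.669% and 0.643%) than in stimulated controls (0.738%, 0.777% and 0.768%), without overlap, and its part in the stimulated genotype results was not tested. Pparg, the targeted gene, did not follow the labels: it was at 62.3, 61.6 and 61.0 CPM in vehicle controls and at 111, 91.0 and 95.9 in vehicle libraries labelled knockout (log2 difference 0.69 ± 0.11 SE, adjusted p = 0.00124 by edgeR). Stimulation lowered Pparg in both genotypes, to a mean of 3.55 CPM in controls and 4.45 in libraries labelled knockout. There the genotype difference did not pass (0.33 ± 0.16 SE, adjusted p = 0.177 by edgeR). Counts over the whole gene include exons outside a deleted stretch and do not test the deletion itself. Throughout, these are therefore called the libraries labelled knockout, and every genotype direction below rests on that label.

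Promoter stretches are shown for the 3 members with a motif match and for Irf7 and Irf5, the members with the greatest response and the smallest stimulated genotype p. All 8 members matched RefSeq promoter windows of GRCm38.p6, which run from 250 bases before to 50 bases after a transcript start. Irf1, Irf8 and Irf9 had a second window. The windows were searched on both strands for an interferon-stimulated response element core, read as GAAA repeated after a gap of 2 bases, and for a STAT site, TTCNNNGAA. Among 32851 windows genome-wide, 1131 (3.44%) held the first and 2726 (8.3%) held the second. Capitals mark the matches that lie in the stretches printed, which leave out annotated exons.

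Irf1, chr11:53769764-53770013, plus strand, holds a STAT match beginning 90 bases before the start.
Irf1: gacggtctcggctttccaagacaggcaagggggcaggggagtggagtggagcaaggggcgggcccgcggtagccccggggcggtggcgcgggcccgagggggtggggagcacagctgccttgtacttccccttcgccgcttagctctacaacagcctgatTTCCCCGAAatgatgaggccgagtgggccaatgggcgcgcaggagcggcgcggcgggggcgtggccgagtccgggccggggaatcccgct
Irf2, chr8:46739516-46739731, plus strand, holds a STAT match beginning 224 bases before the start.
Irf2: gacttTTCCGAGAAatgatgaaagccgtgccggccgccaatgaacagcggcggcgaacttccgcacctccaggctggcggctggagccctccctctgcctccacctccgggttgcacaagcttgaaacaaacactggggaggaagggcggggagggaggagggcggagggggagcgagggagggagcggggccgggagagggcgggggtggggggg
Irf8, chr8:120736108-120736357, plus strand, holds a pair of STAT matches beginning 171 and 153 bases before the start.
Irf8: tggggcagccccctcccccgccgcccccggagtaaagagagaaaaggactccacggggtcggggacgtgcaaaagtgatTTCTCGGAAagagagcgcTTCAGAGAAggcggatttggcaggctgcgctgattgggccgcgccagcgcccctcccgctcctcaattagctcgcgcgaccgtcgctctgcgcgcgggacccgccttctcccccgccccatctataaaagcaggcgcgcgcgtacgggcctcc
Irf7, chr7:141266482-141266674, minus strand, holds no match and is that of the member with the greatest response to stimulation.
Irf7: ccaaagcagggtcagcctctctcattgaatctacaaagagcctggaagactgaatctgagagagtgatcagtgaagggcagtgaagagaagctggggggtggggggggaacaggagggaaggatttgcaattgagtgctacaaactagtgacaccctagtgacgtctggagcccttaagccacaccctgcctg
Irf5, chr6:29526375-29526624, plus strand, holds no match and is that of the member with the smallest adjusted p by genotype after stimulation.
Irf5: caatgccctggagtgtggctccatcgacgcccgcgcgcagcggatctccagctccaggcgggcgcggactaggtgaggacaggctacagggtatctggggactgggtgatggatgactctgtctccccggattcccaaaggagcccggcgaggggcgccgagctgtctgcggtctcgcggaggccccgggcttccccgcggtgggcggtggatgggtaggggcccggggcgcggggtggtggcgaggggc

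The Irf2 window also held the response element match GAAAATGAAA, 241 bases before the start, inside an exon of the divergent transcript Gm16675. No match to either motif was found in the windows of Irf3, Irf4, Irf5, Irf7 or Irf9, nor in the second windows of Irf1 and Irf8. These letters describe short windows and say nothing of factor binding.

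**Figure D1:**
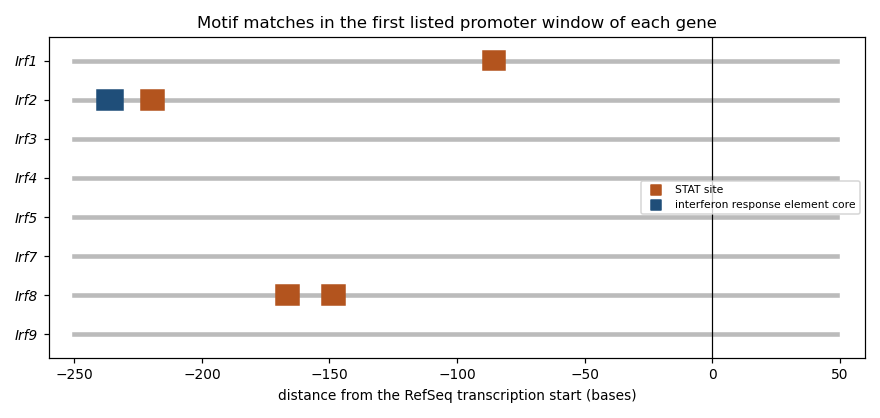
Positions of motif matches in the first RefSeq promoter window of each member, with distance from the transcript start in bases on the horizontal axis and 1 row per gene. Irf1, Irf2 and Irf8 carry STAT matches, Irf2 also a response element match, and the other 5 rows hold none.

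Before stimulation, the family was dominated by Irf5. Levels between genes were compared as CPM, scaled between libraries by the trimmed mean of M-values (TMM), per kilobase of exon. That length covers all exons of a gene in the deposited annotation, from 2484 bases for Irf2 to 7055 for Irf8. The transcripts in use may be shorter, so the order between genes and the shares below depend on it. In vehicle controls the order was Irf5 at 109 ± 4.56 (SD, n = 3), Irf2 at 32.7 ± 0.833, Irf8 at 22.8 ± 0.201, Irf1 at 16.7 ± 0.444, Irf3 at 12.3 ± 0.275, Irf7 at 10.9 ± 1.36, Irf9 at 8.87 ± 0.357 and Irf4 at 0.498 ± 0.0407. The libraries of neighbours in this order did not overlap, except for Irf3 and Irf7. In vehicle libraries labelled knockout Irf5 again led at 125 ± 1.71, and Irf8 with Irf1, and Irf3 with Irf9, overlapped. After stimulation Irf7 led in controls at 873 ± 78.5 and in libraries labelled knockout at 1350.5 ± 18.5 per kilobase, followed by Irf1 at 346 ± 23.6 and 410.1 ± 18.9. Irf5 was then the third, at 108 ± 6.91 and 166 ± 8.75. Irf9 and Irf8 overlapped in both stimulated groups.

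The summed family level was 214 ± 6.27 CPM per kilobase in vehicle controls, 240.3 ± 4.97 in vehicle libraries labelled knockout, 1454 ± 108 in stimulated controls and 2069 ± 46.9 in stimulated libraries labelled knockout. The composition of that sum turned over with stimulation. Irf5 made up 51.0% of it in vehicle controls and 7.42% in stimulated controls, whereas Irf7 went from 5.1% to 60%. In stimulated libraries labelled knockout Irf7 held 65.3%, Irf1 19.8% and Irf5 8.02%. Irf4 held under 1% in every group, at 0.232% in vehicle controls and 0.055% in stimulated libraries labelled knockout.

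**Figure D2:**
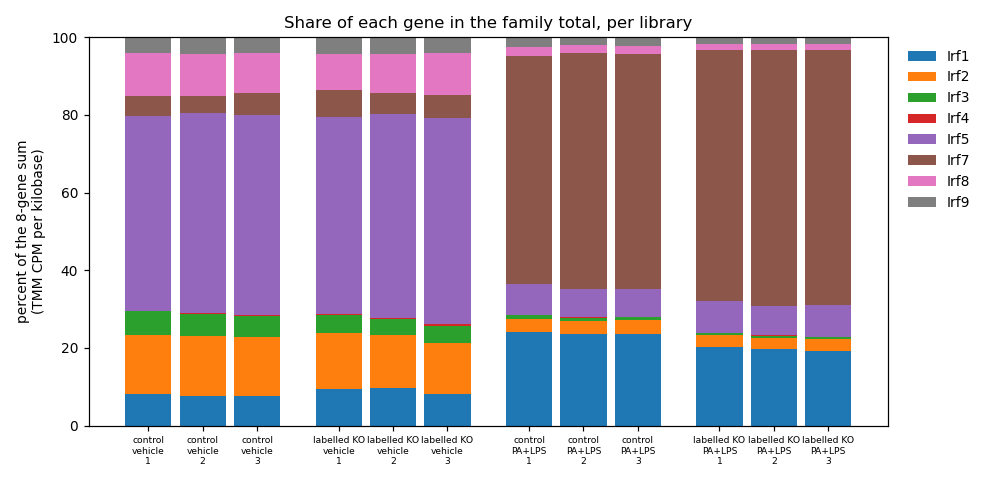
Share of the summed family level (percent of TMM CPM per kilobase) taken by each member, stacked in 1 bar for each of the 12 libraries. Irf5 takes a mean of 51.0% in vehicle controls, and Irf7 takes 60% and 65.3% in the stimulated groups.

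In controls, palmitate plus LPS raised 6 of the 8 members, Irf1, Irf2, Irf4, Irf7, Irf8 and Irf9, and lowered none; 32.0% of all genes tested were called higher and 34.7% lower. In libraries labelled knockout 6 members rose, Irf1, Irf2, Irf5, Irf7, Irf8 and Irf9, against 33.7% of all genes higher and 35.6% lower. These calls come from edgeR's quasi-likelihood test at a Benjamini-Hochberg adjusted p of 0.05, levels below are TMM CPM, and gene positions are those of the deposited annotation on GRCm38. Groups whose libraries did not overlap were common. By genotype this held for 19.8% of all genes tested with vehicle and 42.2% after stimulation. By treatment it held for 74.8% in controls and 70.4% in libraries labelled knockout. It held for 6 of the 8 members in each of these comparisons. A fall in the number of cells of a type and less RNA per cell cannot be told apart in bulk libraries. Scaling by total counts moved the median log2 change of all genes to -0.38 in controls and -0.42 in libraries labelled knockout, from -0.05 and -0.06, and moved the share of called genes that were higher from 48% to 29.2% and from 48.6% to 28.9%.

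Irf7 (ENSMUSG00000025498, chr7:141262706-141266481, minus strand), the factor known for amplifying type I interferon production, had the greatest response. Its level was 32.2, 29.5 and 37.5 CPM in vehicle controls and 2415, 2886 and 2608 in stimulated controls. In the libraries labelled knockout it was 51.2, 39.5 and 41.7 with vehicle and 4135, 4078 and 4023 with palmitate plus LPS. The 3 stimulated libraries labelled knockout lay above all 3 stimulated controls, and all stimulated libraries lay far above all vehicle libraries. The treatment change was 79.9-fold in controls (log2 6.32 ± 0.13 SE, adjusted p = 9.03e-16) and 92.5-fold in libraries labelled knockout (6.53 ± 0.13, adjusted p = 5.76e-16). The genotype difference after stimulation was 0.63 ± 0.1 on the log2 scale (adjusted p = 0.000726), and with vehicle it was 0.42 ± 0.11 (adjusted p = 0.0487). The difference between these, tested as an interaction, was 0.21 ± 0.15 (adjusted p = 0.384). Irf7 shares 45 exon bases (1.49%) with Phrf1 on the opposite strand, and the strand setting of the counting is not given in the sources used here.

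Irf3 (ENSMUSG00000003184, chr7:44997648-45002848, plus strand), the constitutively expressed factor that starts interferon induction, did not follow Irf7. It was at 40.2, 38.5 and 38.9 CPM in vehicle controls, 36.5, 30.9 and 34.3 in vehicle libraries labelled knockout, 43.1, 42.1 and 34.8 in stimulated controls and 35.2, 36.2 and 34.8 in stimulated libraries labelled knockout. The vehicle genotype groups did not overlap, with the libraries labelled knockout lower, but the log2 difference of -0.21 ± 0.09 did not pass the test (adjusted p = 0.273), and after stimulation the groups overlapped (-0.18 ± 0.09, adjusted p = 0.224). Its treatment changes of 0.03 ± 0.09 in controls (adjusted p = 0.811) and 0.06 ± 0.09 in libraries labelled knockout (adjusted p = 0.553) became -0.3 in each under total-count scaling, past the threshold (adjusted p = 0.0107 and 0.0115). The library ratio of Irf7 to Irf3 per kilobase was 0.844, 0.807 and 1.02 in vehicle controls, 1.48, 1.35 and 1.28 in vehicle libraries labelled knockout, 59.1, 72.4 and 79.2 in stimulated controls and 124, 119 and 122 in stimulated libraries labelled knockout. The ratio was higher in every library labelled knockout than in every control of the same treatment. Ifnb1, a target of both factors that encodes interferon beta, had 7, 8 and 9 reads in stimulated controls and 23, 28 and 40 in stimulated libraries labelled knockout (1.96 ± 0.33, adjusted p = 0.00121), with a single read among the 6 vehicle libraries.

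Irf9 (ENSMUSG00000002325, chr14:55603571-55610030, plus strand), the DNA-binding partner of STAT2, rose with stimulation. Its level was 46.2, 49.9 and 47.2 CPM in vehicle controls and 181, 173 and 177 in stimulated controls, a 3.7-fold change (1.89 ± 0.07, adjusted p = 2.49e-12). In libraries labelled knockout it went from 59.0, 54.9 and 52.8 to 187, 200.2 and 192 (1.8 ± 0.07, adjusted p = 3.84e-12). The libraries labelled knockout lay just above the controls under either treatment, but the genotype difference passed the test neither with vehicle (0.22 ± 0.07, adjusted p = 0.139) nor after stimulation (0.13 ± 0.07, adjusted p = 0.245) by edgeR, whereas DESeq2 called the vehicle difference (0.23, adjusted p = 0.0357). Rnf31, on the same strand, shares 123 exon bases (2.28%) with Irf9.

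Irf1 (ENSMUSG00000018899, chr11:53770014-53778374, plus strand), the activator of antigen presentation and nitric oxide synthase genes, was at 67.8, 64.5 and 67.4 CPM in vehicle controls and at 1306, 1483 and 1339.7 in stimulated controls. In the libraries labelled knockout it was at 91.2, 91.3 and 76.9 with vehicle and at 1712, 1616 and 1564 after stimulation. The libraries labelled knockout were above the controls under both treatments without overlap. Stimulation raised Irf1 20.7-fold in controls (4.37 ± 0.1, adjusted p = 1.46e-15) and 18.9-fold in libraries labelled knockout (4.24 ± 0.1, adjusted p = 1.64e-15). Its vehicle genotype difference of 0.38 ± 0.09 passed the test (adjusted p = 0.0188), and that after stimulation, 0.24 ± 0.08, did not (adjusted p = 0.0571) by edgeR. DESeq2 called the latter (0.25, adjusted p = 0.0311), as did edgeR with only the stimulated libraries (adjusted p = 0.00572) or without vehicle replicate 1 or 3 labelled knockout (adjusted p = 0.0038 and 0.0297). The interaction was -0.13 ± 0.12 (adjusted p = 0.493).

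Irf2 (ENSMUSG00000031627, chr8:46739745-46847458, plus strand), which competes with IRF1 for its elements, changed less. It was at 78.9, 82.3 and 82.6 CPM in vehicle controls, 87.7, 78.9 and 78.7 in vehicle libraries labelled knockout, 115, 128 and 126 in stimulated controls and 162, 145 and 151 in stimulated libraries labelled knockout. The vehicle genotype groups overlapped, whereas every stimulated library labelled knockout lay above every stimulated control. Stimulation raised it 1.51-fold in controls (0.6 ± 0.08, adjusted p = 5.42e-06) and 1.87-fold in libraries labelled knockout (0.9 ± 0.08, adjusted p = 4.15e-08). The stimulated genotype difference was 0.31 ± 0.08 (adjusted p = 0.0121), which lost its call without stimulated control replicate 1 (0.26, adjusted p = 0.0598) or stimulated replicate 1 labelled knockout (0.27, adjusted p = 0.0693). The ratio of Irf1 to Irf2 per kilobase moved from 0.512 ± 0.0235 in vehicle controls to 7.0 ± 0.315 in stimulated controls, and from 0.661 ± 0.0569 to 6.67 ± 0.257 in libraries labelled knockout.

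**Figure D3:**
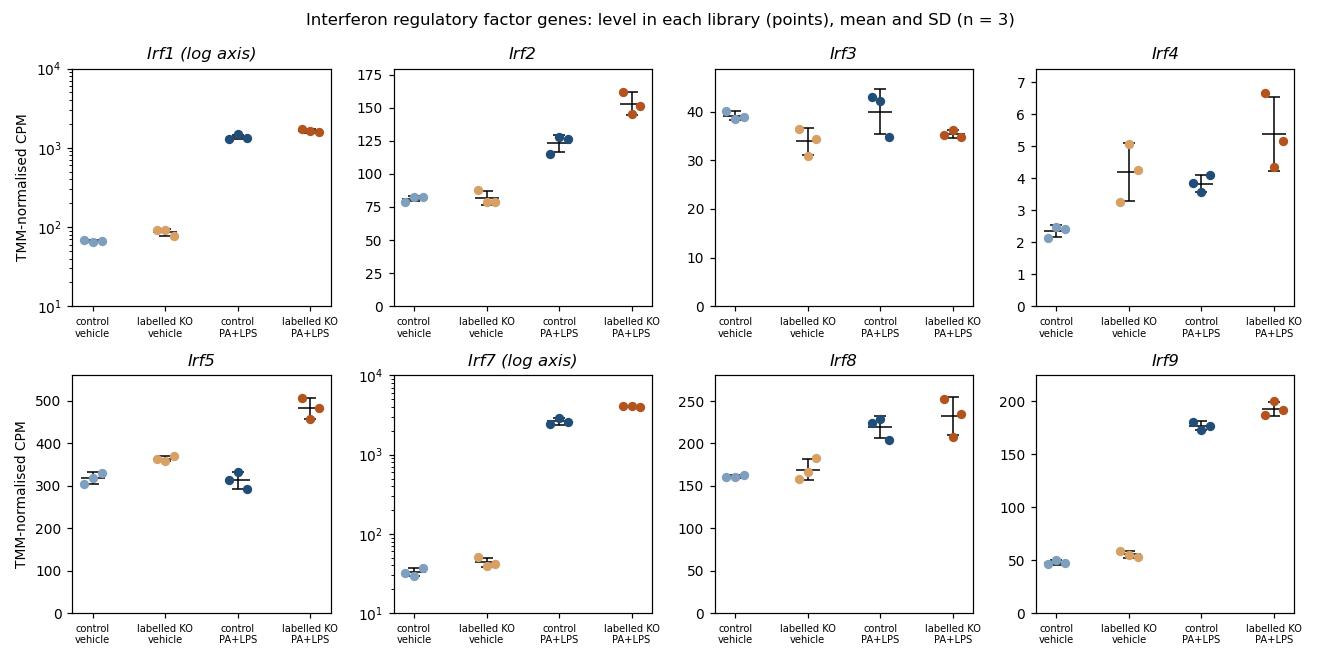
TMM CPM of each member in the 12 libraries, 1 panel per gene, with points for libraries and bars for the mean and SD of 3; the Irf1 and Irf7 panels have log axes. Irf5 sits between 456 and 506 in the stimulated libraries labelled knockout and between 293 and 369 in all others.

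Irf5 (ENSMUSG00000029771, chr6:29526625-29541869, plus strand), which drives inflammatory cytokine genes downstream of MyD88, was the 1 member called in the interaction test. Its level was 304, 319 and 330.3 CPM in vehicle controls and 313, 333 and 293 in stimulated controls. In the libraries labelled knockout it was 363, 359 and 369 with vehicle and 506, 456 and 484 after stimulation. The vehicle and stimulated controls overlapped, every library labelled knockout lay above all controls, and the stimulated libraries labelled knockout were the highest 3 of the 12. The treatment change was -0.02 ± 0.07 in controls (adjusted p = 0.802) and 0.41 ± 0.07 in libraries labelled knockout (adjusted p = 0.000145), and the interaction was 0.43 ± 0.1 (adjusted p = 0.0222). That is 1 member of 8, a count near the shares over all genes, of which 4.7% were called higher and 3.35% lower. The interaction of Irf2 was 0.3 ± 0.11 and did not pass (adjusted p = 0.098 by edgeR). The genotype difference was 0.62 ± 0.07 after stimulation (adjusted p = 3.87e-05) and 0.2 ± 0.07 with vehicle (adjusted p = 0.187).

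Under total-count scaling the treatment change of Irf5 became -0.35 in controls (adjusted p = 0.000356) and 0.04 in libraries labelled knockout (adjusted p = 0.645); relative to the median of all genes these were 0.03 and 0.46. The interaction value lay between 0.38 and 0.48 in every alternative, but its call was lost without vehicle control replicate 2 or 3, stimulated control replicate 3, or stimulated replicate 1 or 3 labelled knockout (adjusted p between 0.0516 and 0.0816). Tnpo3, on the opposite strand, shares 411 exon bases (14.2%) with Irf5. Tnpo3 itself changed by 0.58 ± 0.13 with stimulation in libraries labelled knockout (adjusted p = 0.00073) and by 0.08 ± 0.13 in controls (adjusted p = 0.578), and its part in the Irf5 result was not tested.

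Irf8 (ENSMUSG00000041515, chr8:120736358-120756694, plus strand), a lineage factor of monocytes, macrophages and dendritic cells, was at 160.3, 160.3 and 163 CPM in vehicle controls, 158, 166 and 183 in vehicle libraries labelled knockout, 224, 229 and 204 in stimulated controls and 253, 208 and 235 in stimulated libraries labelled knockout. The genotypes overlapped under both treatments, and the stimulated libraries lay above the vehicle libraries. Stimulation raised it 1.36-fold in controls (0.44 ± 0.09, adjusted p = 0.000275) and 1.38-fold in libraries labelled knockout (0.46 ± 0.09, adjusted p = 0.000175), and under total-count scaling neither change passed (0.11, adjusted p = 0.306, and 0.09, adjusted p = 0.42). The genotype difference was 0.07 ± 0.09 with vehicle (adjusted p = 0.723) and 0.08 ± 0.09 after stimulation (adjusted p = 0.539).

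Irf4 (ENSMUSG00000021356, chr13:30749226-30766927, plus strand), the relative of Irf8 linked to alternative macrophage activation, rested on 48 to 127 reads a library. It was at 2.13, 2.49 and 2.42 CPM in vehicle controls, 3.25, 5.06 and 4.25 in vehicle libraries labelled knockout, 3.84, 3.56 and 4.09 in stimulated controls and 6.65, 4.34 and 5.15 in stimulated libraries labelled knockout. The libraries labelled knockout were above the controls under both treatments without overlap. The genotype difference passed with vehicle (0.85 ± 0.19, adjusted p = 0.0183) but not after stimulation (0.48 ± 0.18, adjusted p = 0.0879). Stimulation raised Irf4 in controls (0.71 ± 0.2, adjusted p = 0.00488), which total-count scaling ended (0.38, adjusted p = 0.124), and the change in libraries labelled knockout was 0.35 ± 0.18 (adjusted p = 0.0977). B cells also express Irf4; of the 6 B cell markers listed, 5 were tested and edgeR called 0 by genotype under either treatment, as did DESeq2 (unadjusted p under 0.05 in 0 with vehicle and 3 after stimulation), and their summed level was 80.6 to 86.8 CPM in vehicle controls and 79.2 to 96.5 in vehicle libraries labelled knockout.

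By genotype, 3 members (Irf1, Irf4 and Irf7) were higher in the vehicle libraries labelled knockout, against 2.11% of all genes higher and 1.69% lower, and 3 (Irf2, Irf5 and Irf7) were higher after stimulation, against 10% higher and 6.1% lower. No member was called lower by genotype under either treatment, by edgeR or in the alternatives run. The share of called genes that were higher after stimulation was 62.1%, or 34.8% under total-count scaling, and that of the interaction was 58.4%, or 33%. The vehicle calls were fragile: all 3 were lost when vehicle control replicate 1 or 2 was left out or when only the vehicle libraries were fitted, and 1 of 3 remained without vehicle control replicate 3 or vehicle replicate 2 labelled knockout. The Irf7 call with vehicle was also lost without stimulated control replicate 2 or 3 or any stimulated library labelled knockout (adjusted p from 0.0536 to 0.0816), and with size factors in place of TMM (0.43, adjusted p = 0.0518). The stimulated Irf5 and Irf7 calls held in all 18 alternatives, at 0.54 to 0.67 and 0.55 to 0.7. Without vehicle replicate 1 labelled knockout, the library that stood apart, 5 members were called higher after stimulation, Irf1 and Irf4 being the additions (adjusted p = 0.0038 and 0.0233). In that fit calls over all genes rose too, to 2251 higher and 1829 lower of 13148, from 1293 and 788 of 12914. Irf2 gained an interaction call there (0.35, adjusted p = 0.00751), while interaction calls over all genes went from 607 higher and 432 lower to 1017 and 735.

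**Figure D4:**
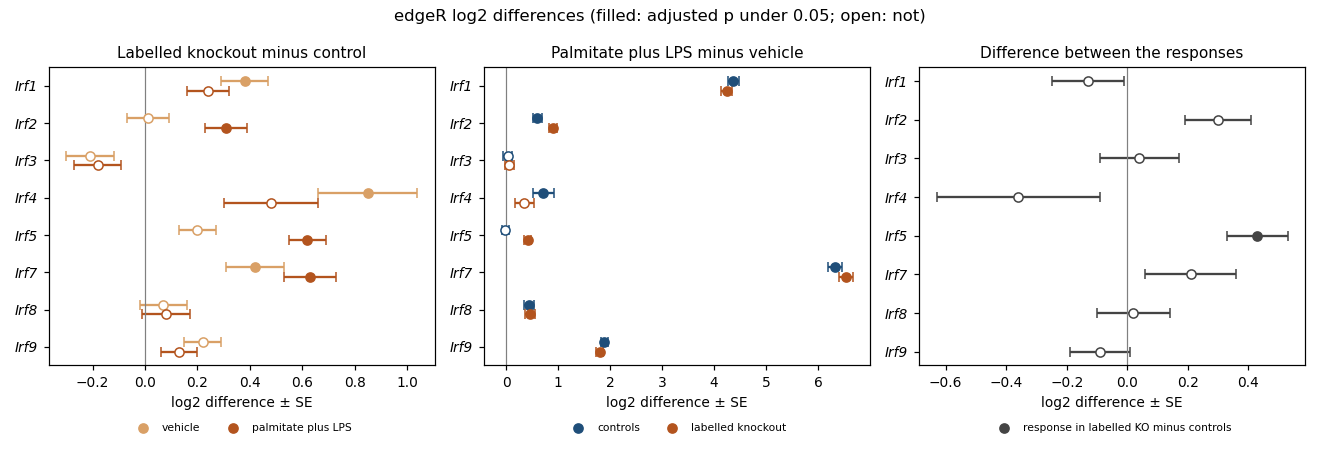
Log2 differences with SE bars for each member in the genotype and treatment comparisons, from edgeR on all 12 libraries, filled where the adjusted p was under 0.05. Irf5 and Irf7 lie at 0.62 and 0.63 in the stimulated genotype comparison, and Irf3 has no filled point.

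Of the 8 macrophage markers, edgeR called 1 higher and 1 lower by genotype with vehicle, and 3 higher and 2 lower after stimulation. Over all genes, 2.11% were called higher and 1.69% lower with vehicle, and 10% and 6.1% after stimulation. Markers of some other cell types moved with genotype too. Of the eosinophil markers 1 was tested, and edgeR and DESeq2 called 0 by genotype (unadjusted p under 0.05 in 0). Neutrophil markers, 4 tested of 6, summed to 77.1 to 80.6 CPM in vehicle controls and 111 to 114 in vehicle libraries labelled knockout, with 2 called higher, and to 106 to 115 and 143 to 173 after stimulation, with 2 higher and 1 lower. Csf3r (means of 57.2 and 63.0) and Mmp8 (16.4 and 43.7) made up most of the vehicle sums. Ly6g was at 0, S100a9 had 2 reads in vehicle controls and 0 elsewhere, and S100a8 averaged 15.0 and 6.93 CPM after stimulation. Fibroblast and mesothelial markers, 8 tested of 8, summed to 124 to 143 in stimulated controls and 181 to 330.3 in stimulated libraries labelled knockout, with 5 higher, and to 111 to 132 and 144 to 189 with vehicle, where edgeR called 0 and DESeq2 1 (unadjusted p under 0.05 in 2). Dendritic cell markers summed to at most 9.27, and edgeR and DESeq2 called 0 of 3 tested by genotype (unadjusted p under 0.05 in 0). Of 3 mast cell markers tested, 1, Kit, was higher under each treatment (means of 0.45 and 1.17 CPM with vehicle, 2.3 and 4.3 after stimulation), whereas Tpsb2 averaged 3.6 and 2.41, then 2.24 and 1.56, in controls and libraries labelled knockout. Cpa3 had 74 and 52 reads over the 3 libraries of each vehicle group, then 42 and 19. Whether such cells were present, and their part in the member results, was not tested.

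The genes around the family were taken from lists of pathway members and targets, which were chosen with earlier results of these data known. Counts below are edgeR's over tested members. After stimulation the median log2 difference of all genes was -0.01, and 10% of all genes were called higher and 6.1% lower. Of 19 sensors and kinases upstream of the factors, 7 were higher in stimulated libraries labelled knockout, the other 12 did not pass, and the median was 0.12. Tlr3, the double-stranded RNA receptor that activates IRF3, went from 32.9 ± 1.0 CPM in stimulated controls to 88.2 ± 11.6 (1.42 ± 0.17 SE, adjusted p = 3.41e-05). Ifih1 and Ddx58, cytosolic RNA sensors, were higher by 0.71 ± 0.09 and 0.66 ± 0.09. With vehicle, edgeR and DESeq2 called 0 of the 19 (unadjusted p under 0.05 in 2, both lower).

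Of 10 interferon receptor and JAK-STAT genes, 6 were higher after stimulation and the other 4 did not pass, with a median of 0.39; DESeq2 called 6 higher and 1 lower. Stat2, the partner of IRF9, went from 385 ± 41.6 to 637 ± 19.8 CPM (0.73 ± 0.14, adjusted p = 0.00215). With vehicle, edgeR and DESeq2 called 0 of the 10 (unadjusted p under 0.05 in 0).

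The DNA-binding partners and cofactors of the family were split, with 3 of 14 higher, 4 lower and a median of -0.08. Batf3, the AP-1 factor that pairs with IRF4 and IRF8, was at 12.1 ± 0.739 CPM in stimulated controls and 4.62 ± 0.612 in stimulated libraries labelled knockout (-1.39 ± 0.14, adjusted p = 8.52e-06). Stimulation raised Batf3 in controls (1.56 ± 0.14, adjusted p = 5.72e-08) and lowered it in libraries labelled knockout (-0.44 ± 0.14, adjusted p = 0.0128), with an interaction of -2.0 ± 0.2 (adjusted p = 4.31e-05). Irf2bp2, a corepressor that binds IRF2, was lower by genotype after stimulation (-0.56 ± 0.12, adjusted p = 0.00472), and Ikzf1 was higher (0.75 ± 0.13, adjusted p = 0.00073). Batf3 was higher with vehicle (0.61 ± 0.14, adjusted p = 0.0225), the 1 gene of the 14 that edgeR called, while DESeq2 called 2.

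Of 13 feedback genes, 5 were higher and 1 lower after stimulation, with a median of 0.4. Usp18, the protease that restrains interferon receptor signalling, went from 2614 ± 145 to 4003 ± 86.8 CPM (0.61 ± 0.09, adjusted p = 0.000373), and Socs3 fell by genotype from 139 ± 11.2 to 98.4 ± 12.8 (-0.5 ± 0.11, adjusted p = 0.00568). With vehicle Usp18 was the 1 of 13 called, higher by 0.52 ± 0.1 (adjusted p = 0.00691).

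Target lists share members (Il12b is a target of IRF1, IRF5 and IRF8), so they are not independent. Of 16 genes listed for IRF3, IRF7 and IRF9, 13 were higher after stimulation and the other 3 did not pass, with a median of 0.56, and Ifit2, which binds viral RNA, went from 2789.6 ± 18.8 to 5691 ± 413 CPM (1.03 ± 0.07, adjusted p = 3.7e-07). Of 14 IRF1 targets 11 were higher and the other 3 did not pass, with a median of 0.54. Il27, an interleukin subunit, went from 536 ± 16.7 to 1286 ± 71.8 (1.26 ± 0.08), and Nos2, which makes nitric oxide, from 220.3 ± 5.58 to 471 ± 24.3 (1.1 ± 0.09). Of 7 IRF5 targets 1 was higher and 2 were lower. Il12b rose by genotype from 1107 ± 96.8 to 1980.4 ± 309 CPM (0.84 ± 0.12, adjusted p = 0.000178), whereas Il1b was at 4164 ± 573 and 2145 ± 242 (-0.96 ± 0.11, adjusted p = 4.03e-05) and Il23a at 23.8 ± 3.17 and 10.1 ± 1.57 (-1.23 ± 0.15, adjusted p = 4.67e-05). The other 4 listed IRF5 targets were not called.

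Of 12 IRF8 targets 3 were higher and 1 lower, with a median of 0.12. Of 10 genes listed for IRF4, 1 was higher and 1 lower, with a median of 0.09. These IRF4 counts are near the shares called over all genes. With vehicle, 3 of the 16 IRF3, IRF7 and IRF9 targets were higher (Rsad2, Ifit2 and Ifit3) and 1 of the 14 IRF1 targets, against 2.11% of all genes; DESeq2 called 3 of the 14. Of the 12 IRF8 targets edgeR called 1 higher with vehicle, Cx3cr1, a chemokine receptor (1.36 ± 0.21, adjusted p = 0.00123), and DESeq2 3. Of the 10 genes listed for IRF4, 2 were lower with vehicle and 8 did not pass, with a median of -0.07. Arg1, the arginase of alternatively activated macrophages and an IRF4 target, was lower, at 18.1 ± 2.57 against 8.84 ± 0.889 CPM (-1.03 ± 0.13, adjusted p = 0.000203 by edgeR). Kdm6b, a histone demethylase, was lower too, at 15.1 ± 1.76 against 11.1 ± 1.69 (-0.44 ± 0.12, adjusted p = 0.0471 by edgeR). Whether Kdm6b is a target of IRF4 was not tested. By treatment in controls all 16 IRF3, IRF7 and IRF9 targets and all 7 IRF5 targets rose, with medians of 7.76 and 8.45 against -0.05 for all genes. Of the 12 IRF8 targets 5 rose and 6 fell, and of the 10 genes listed for IRF4 3 rose and 6 fell. In that comparison 32.0% of all genes rose and 34.7% fell.

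**Figure D5:**
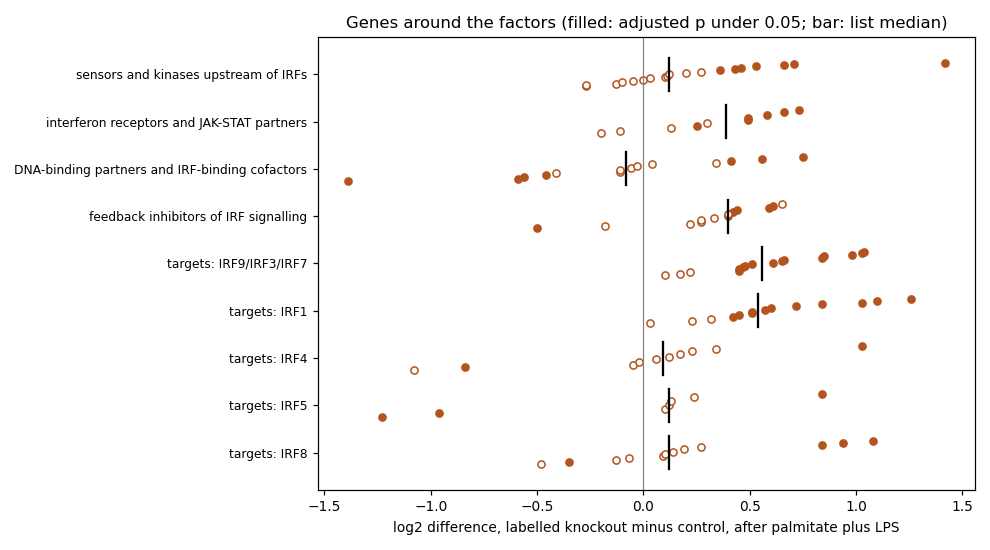
Log2 genotype differences after stimulation for the tested genes of each list around the family, 1 point per gene, with the list median. The IRF3, IRF7 and IRF9 target list has a median of 0.56 and the partner list a median of -0.08.

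The genes whose levels ran most alike with each member were found by the Pearson correlation of log2(CPM + 1) over the 12 libraries, among 7412 genes; the libraries share the strong treatment effect, so the values describe and do not test. Irf7 was most like Usp18 and Oas1g (r = 1.0 each), with 1424 genes above 0.95. Irf1 was most like Ifi211 and Rsad2 (0.999 each), Irf9 like Traf1 and Mthfd2 (0.999 each), and Irf2 like Mapre1 (0.996). Irf5 was most like Mtus1 (0.937), which averaged 12.3, 15.9, 13.2 and 33.7 CPM in vehicle control, vehicle labelled knockout, stimulated control and stimulated labelled knockout libraries, and Fgl2 (0.929). Irf8 was most like Furin (0.976), Irf4 like C1s1 (0.931), and Irf3 had the weakest closest match, Ngrn at 0.838.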

How the data were processed

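RNA was extracted on Ambion columns and libraries were made with the Clontech SMARTer kit, per the labels' protocols. Per the submitters' processing notes, bcl2fastq 2.0, STAR 2.0.4b, Subread and featureCounts 1.45 were used with GRCm38. Neither options, annotation nor strand setting is stated in the sources used here. The deposited tables give raw read counts per gene, with the authors' CPM and RPKM beside them; both differed from values recomputed from the counts by at most 5.8e-11. Of 41388 genes, 40254 had a symbol.

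Counts were tested with edgeR 4.0.16 (R 4.3.3) after its default filter on low counts and TMM scaling, using a robust quasi-likelihood fit of all 12 libraries with 1 mean per group and Benjamini-Hochberg adjustment at 0.05 over 12914 genes. The code was tested on simulated data. The tested genes held at least 99.92% of each library's counts. Alternatives were size factors, total-count scaling, no filter, DESeq2 1.42.0, only the compared groups, the replicate number as a block, and leaving out each library. The members, gene lists and marker lists were chosen with earlier results of these data known. All members, Pparg and Ifnb1 are described. From each list and comparison, up to 4 genes with the smallest p and up to 2 called against the list's main direction could be named. Likeness was computed among tested genes with a symbol, without predicted genes, whose highest group mean reached 10 CPM. Genotype comparisons within a treatment and treatment comparisons within a genotype share libraries, so their calls are not independent. Replicate libraries of a group differed beyond counting noise (chi-square per degree of freedom 2.45 to 48.83), so none was merged. Promoters are RefSeq's, of GRCm38.p6. One gene of the pathway lists is counted but not reported here by name. Counts at an unadjusted p and by DESeq2 for the gene and marker lists were added after seeing the data.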

Additional observations from a re-analysis of the deposited data

Results flagged for a closer look

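The response of Irf5 to palmitate plus LPS differed between libraries labelled knockout and controls by 0.43 on the log2 scale in the interaction test (adjusted p = 0.0222, edgeR), with a treatment change of -0.02 in controls and 0.41 in libraries labelled knockout. The call was lost when any of 5 single libraries was left out and in the fit with the replicate number as a block, while the value stayed between 0.38 and 0.48.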

How the results depend on the processing

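Over 40 member results and 712 values under the alternatives, 647 kept their direction and call. In the same direction, 33 lost a call and 11 gained one. The other 21 changed direction, whatever their call, and some of them round to 0. Among these 21, Irf3 by treatment under total-count scaling gained a call in each genotype (adjusted p = 0.0107 and 0.0115 by edgeR). Irf4 rested on 48 to 127 reads a library and Ifnb1 on at most 40, which limits their precision.

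Under total-count scaling, stimulated genotype calls were 841 higher and 1578 lower genes, interaction calls 388 and 788, and genes called higher by treatment 2644 in controls and 2676 in libraries labelled knockout; members called lower by treatment were 2 and 1. The same scaling turned vehicle Irf2 to -0.04, stimulated Irf8 to 0, Irf3 to -0.3 by treatment in each genotype, Irf4 to -0.03 by treatment in libraries labelled knockout and Irf8 to -0.02 in the interaction. Without the filter, vehicle calls were 465 higher and 495 lower genes and interaction calls 1087 and 788, and vehicle Irf2 was at 0. With only the compared groups, vehicle calls were 114 higher and 115 lower with 0 members, and stimulated calls 2103 and 1708 with 5 members. The treatment change of Irf5 in controls was 0 with size factors and 0 with DESeq2. The causes were not tested.

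Same-numbered libraries correlated between -0.309 and 0.067 in their deviations from group means. These values show no pairing by number, but with 3 libraries a group they cannot exclude one. With the replicate number as a block, interaction calls were 330 higher and 184 lower genes with 0 members, Irf5 being at 0.43 (adjusted p = 0.0635), and 1 member, Irf1, was called higher with vehicle (Irf4 adjusted p = 0.0512, Irf7 0.111).

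Leaving out each library in turn gave 129 to 431 genes higher and 126 to 358 lower with vehicle (0 to 3 members), 794 to 2251 higher and 419 to 1829 lower after stimulation (2 to 5 members), and 276 to 1023 higher and 152 to 939 lower in the interaction (0 to 2 members). Members changing direction were vehicle Irf2 (-0.04 to 0.03), Irf5 (-0.07 to 0.03) and Irf3 (-0.02 to 0.12) by treatment in controls, and Irf3 (-0.05 to 0.1) and Irf8 (-0.05 to 0.09) in the interaction; vehicle Ifnb1, with 1 read in all, ranged from -2.19 to 0.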
